A study of Homo sapiens with 15 samples.

Results

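The response of MDA-MB-231 cells to 5 nM ZJ-101 was examined against the DMSO vehicle, across every gene with a mean normalized count of at least 10 over all libraries. MDA-MB-231 is a human breast cancer line of mesenchymal character, and ZJ-101 is a synthetic, simplified analog of superstolide A, a macrolide from a marine sponge. The comparison used 6 of the 15 libraries, namely 3 from dishes given 5 nM ZJ-101 and 3 from dishes given 0.1% DMSO, all harvested after 6 h in 2D culture, and it covered 13561 of 59608 listed genes. The other libraries, 3 each at 0.5, 50 and 500 nM, entered the same model and are used below where a neighboring dose shows how a gene went on. The vehicle content of the treated dishes is not given in the labels. The study calls the replicates biological, but neither it nor the labels say how the dishes were separated. All dishes hold 1 cell line at 1 time point, which limits the results to this line and to early RNA levels.

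Many of the genes described here encode parts of the secretory route or proteins that travel along it. Proteins made at the endoplasmic reticulum (ER) fold there with the help of lumenal chaperones and disulfide isomerases, receive N-linked sugars, and leave for the Golgi, where glycosyltransferases extend the sugars before the proteins reach the surface, the medium or the lysosome. The unfolded protein response (UPR) is the program by which cells raise ER chaperones when unfolded protein accumulates, and the heat-shock response is the matching program for the cytosol. Matrix proteins, cytokines and surface receptors all use this route.

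Recovered reads on genes numbered 13262548 to 14099280 in the DMSO libraries and 13225890 to 15284762 in the 5 nM libraries. Mitochondrial genes took 0.942% to 1.58% of the reads in DMSO and 1.5% to 2.06% at 5 nM. Of 15 mesenchymal markers, 13 were expressed, with VIM at 13996 to 15092 normalized counts in these 6 libraries, while TWIST1 was at 0 and SPARC stayed under 10. Of 15 luminal markers, only ESR1 and ELF5 stayed under 10, both at 0. The other luminal markers were expressed, with KRT8 at 11491 to 12388 and KRT19 at 6209 to 7137. Of 15 markers of blood, endothelium and fibroblasts, 10 stayed under 10 in all 6 libraries, among them CD3E and HBB at 0. The others were expressed at low to moderate levels. The endothelial markers PECAM1 and KDR stood at 238 to 321 and 102 to 125 normalized counts. PDGFRB had 36.5 to 60.7, CD14 19.6 to 28.8 and ACTA2 9.13 to 17.5. The summed level of those 15 markers was 459 to 499 normalized counts in DMSO and 451 to 507 at 5 nM. Library 2 of the 0.5 nM group had the widest scatter around its group mean (SD of 0.213 on the log2 scale, against 0.159 to 0.194 in the others), and it enters the estimate of the spread that all comparisons share.

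At 5 nM, 295 genes passed the threshold of the limma test (Benjamini-Hochberg adjusted p under 0.05), or 2.18% of those tested. Of these, 63 rose (0.465%) and 232 fell (1.71%). The changes were small. The median size of a called change was 0.32 on the log2 scale, 65 genes changed by at least 0.5, and 7 by at least 1. At an unadjusted p under 0.05 there were 672 higher and 1077 lower genes, and the median log2 fold change over all genes was -0.0003. The libraries of the 2 groups did not overlap for 23.2% of all genes (10.5% higher and 12.7% lower at 5 nM), and they did not overlap for any of the 295. These shares over all genes are the reference for the counts given by list below. A list with 0 or 1 calls can lie near them. The number of calls varied with the libraries in the model. A model with only the 6 libraries called 846 genes (315 up and 531 down), and leaving out library 2 of the 0.5 nM group gave 623. Leaving out DMSO library 1, 2 or 3 gave 113, 131 or 147. Without 5 nM library 1 or 2 the count was 141 or 121. Fits that lack a DMSO or 5 nM library also have fewer libraries to compare. The cause of these shifts was not tested. A set of 84 genes (17 up and 67 down) passed in each of the 15 fits that lacked 1 library. Of the 109 called genes picked for naming, 60 lost their call in at least 1 of these fits and 49 kept it in all 15. Lost calls are marked below for some genes only, so an unmarked call is not thereby a stable one. Because these are bulk RNA values, a lower level may reflect less RNA in every cell or fewer cells that carry it, and these cannot be told apart.

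**Figure D1:**
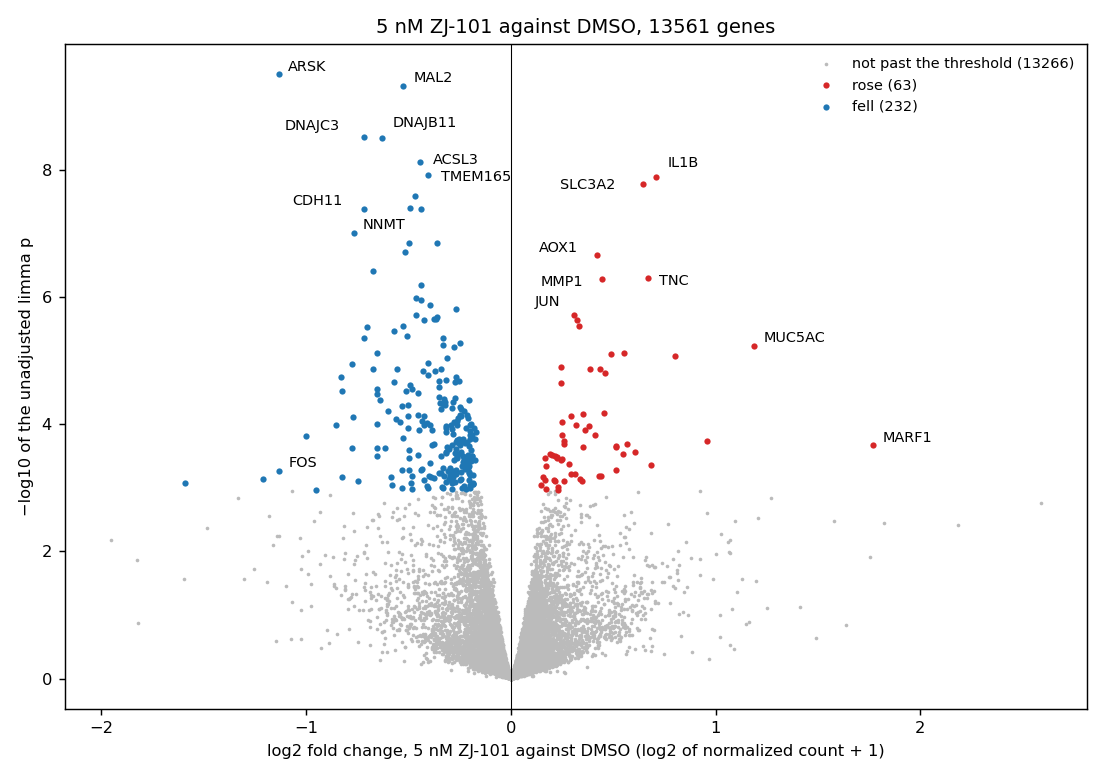
Log2 fold change at 5 nM against DMSO (x axis) and the -log10 of the unadjusted limma p (y axis) of 13561 genes, 1 point per gene. The 232 genes that fell (blue) outnumber the 63 that rose (red), ARSK and MAL2 have the smallest p, and MARF1 and MUC5AC lie farthest to the right among the rises.

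Genes for folding in the ER lumen were lower at 5 nM. Of 26 lumenal chaperones and cofactors tested, 5 fell and 0 rose, and the libraries of 16 did not overlap in the lower direction against 0 in the higher one. Over all genes tested, 1.71% fell, and 12.7% were lower and 10.5% higher without overlap. The 5 that fell were DNAJC3, DNAJB11, MANF, CALR and HSPA5. The median log2 fold change of the list was -0.15, beside -0.0003 over all genes. Of its members, 96.2% lay below 0, beside 50.1% of all genes. Summed over the list, normalized counts were 94350 to 96158 in DMSO and 84850 to 85466 at 5 nM. With DESeq2, edgeR and other settings the direction of this median did not change.

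DNAJC3, an ER cochaperone that delivers unfolded proteins to BiP (chromosome 13, 95677139 to 95794988, GRCh38), had 1311, 1388 and 1356 normalized counts in DMSO and 801, 823 and 839 at 5 nM. All treated libraries lay far below all vehicle libraries, and the log2 fold change was -0.72 with a standard error of 0.07 (adjusted p = 1.1e-05, limma). DNAJB11, another J-domain partner of BiP (chromosome 3, 186567403 to 186585800), had 948, 928 and 915 in DMSO and 606, 620 and 575 at 5 nM, a log2 change of -0.63 (adjusted p = 1.1e-05, limma). Exons of other genes cover 14.2% of its exon bases, so some of its reads could be shared. MANF, a small secreted protein that binds BiP (chromosome 3, 51385291 to 51389397), had 1711, 1694 and 1550 counts in DMSO and 1208, 1183 and 1131 at 5 nM (log2 change -0.49, adjusted p = 4.6e-05, limma). The groups did not overlap for either gene. HSPA5, which encodes BiP itself, moved less. Its counts were 14375, 14267 and 13787 in DMSO and 12377, 12560 and 12287 at 5 nM, a log2 change of -0.19 (adjusted p = 0.022, limma). CALR, the calcium-binding lectin chaperone calreticulin, went from 20406, 20405 and 19655 to 16902, 16883 and 17005 (log2 change -0.25, adjusted p = 0.0098, limma). HSPA5 and CALR lost their calls when some libraries were left out, with adjusted p of 0.12 and 0.06 at most, whereas DNAJC3, DNAJB11 and MANF stayed past the threshold in all 15 such fits.

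**Figure D2:**
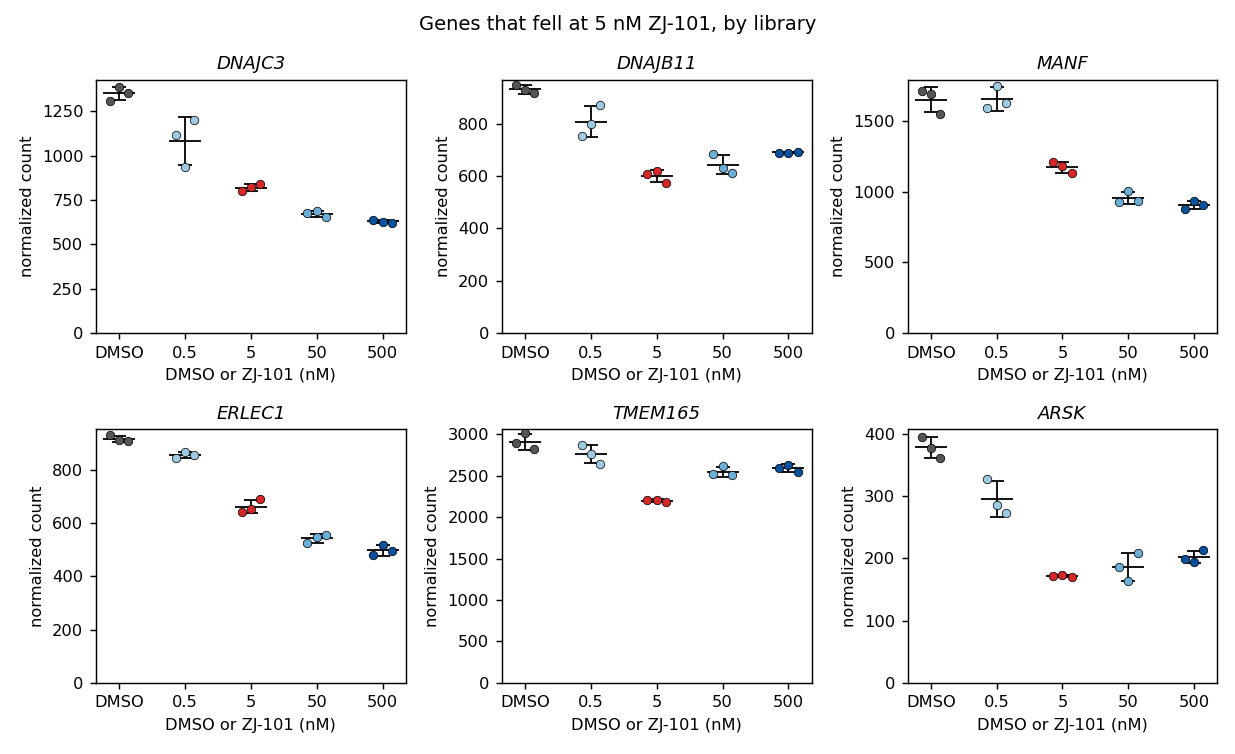
Normalized counts (y axis, from 0) of 6 genes that fell at 5 nM, in DMSO and at 4 doses of ZJ-101 in nM (x axis). Each point is 1 library, the horizontal bar is the mean and the whiskers are the SD of 3 libraries. The 5 nM points of DNAJC3 (801 to 839) lie below its DMSO points (1311 to 1388), and MANF, ERLEC1 and TMEM165 at 0.5 nM lie close to DMSO.

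Among 20 disulfide isomerases and oxidases of the ER, 3 fell and 0 rose, with a list median of -0.09. ERO1B, an oxidase that recharges the isomerases, had 257, 259 and 263 counts in DMSO and 181, 144 and 190 at 5 nM (log2 change -0.60, adjusted p = 0.0089, limma). PDIA5 changed by -0.39 and PDIA6 by -0.19, and exons of another gene cover 25.2% of PDIA6. FICD, an ER enzyme that attaches AMP to BiP, was chosen after its values were seen, as were HSPA5, COL18A1, CXCL1, CXCL8, SMAD6, FSTL3, LRIG2, TTC17 and ZNF251 elsewhere in the text. FICD went from 308, 339 and 311 to 203, 209 and 234 counts, a log2 change of -0.57 (adjusted p = 0.0013, limma).

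Of 17 sensors and transcription factors of the UPR, 2 fell and 0 rose. XBP1, whose spliced messenger encodes a main activator of ER chaperone genes, had 1907, 1876 and 1736 counts in DMSO and 1383, 1390 and 1418 at 5 nM (log2 change -0.40, adjusted p = 0.00074, limma). Gene counts do not separate its spliced and unspliced forms. CREB3L1, a membrane-bound factor that is cut in the Golgi, changed by -0.29 (adjusted p = 0.013, limma). The list median was -0.03, close to that of all genes. DNAJB9, an ER J-domain protein and a frequent UPR marker, had 354, 344 and 316 counts in DMSO and 364, 335 and 351 at 5 nM, with groups that overlap and a 95% interval of the log2 difference from -0.12 to 0.23.

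The promoters of these genes are shown because 5 of the falls hold the ER stress response element, a sequence through which UPR factors act. The element was searched as CCAAT and CCACG with 9 bases of any kind between them, on both strands, from 250 bases before to 50 after the RefSeq start of each gene. It was found in 14 of 10293 tested genes that have a promoter in the table, or 0.136%. Of these 14, 5 fell, 0 rose, 12 had a log2 fold change below 0, and the median was -0.12, from -0.60 for ERO1B to 0.07 for TMEM120A. Over all genes tested, 1.71% fell and 50.1% lay below 0. The 5 falls are the reason why these promoters are shown, so their number is a description only. HSP90B1, the ER member of the Hsp90 family, had the element and a log2 change of -0.15 that did not pass (adjusted p = 0.078, limma). Only 79.7% of the genes that fell and 74.6% of those that rose have an entry, so a comparison of shares between these sets is void, and the matches are given gene by gene. The 250 bases before the start are printed from RefSeq on GRCh38.p14, 5′ to 3′ on the strand of the gene, with the match in capitals, for HSPA5 (chr9:125241344-125241593, minus strand), XBP1 (chr22:28800570-28800819, minus strand), CALR (chr19:12938359-12938608, plus strand), FICD (chr12:108515027-108515276, plus strand) and ERO1B (chr1:236281959-236282208, minus strand).
HSPA5: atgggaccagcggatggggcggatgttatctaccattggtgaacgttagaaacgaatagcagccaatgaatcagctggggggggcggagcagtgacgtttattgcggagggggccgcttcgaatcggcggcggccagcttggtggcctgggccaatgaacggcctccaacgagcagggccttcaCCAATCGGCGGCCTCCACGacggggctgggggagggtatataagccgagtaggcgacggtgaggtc
XBP1: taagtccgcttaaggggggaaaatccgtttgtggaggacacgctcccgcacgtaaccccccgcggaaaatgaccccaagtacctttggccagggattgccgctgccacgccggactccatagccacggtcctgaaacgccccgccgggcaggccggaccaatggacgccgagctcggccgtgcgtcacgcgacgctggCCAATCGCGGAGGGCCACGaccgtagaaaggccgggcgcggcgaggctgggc
CALR: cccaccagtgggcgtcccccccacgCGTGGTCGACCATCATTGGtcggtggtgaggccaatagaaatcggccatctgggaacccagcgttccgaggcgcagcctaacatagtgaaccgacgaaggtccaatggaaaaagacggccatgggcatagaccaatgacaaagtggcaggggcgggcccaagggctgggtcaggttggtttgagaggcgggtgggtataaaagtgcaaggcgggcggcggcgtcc
FICD: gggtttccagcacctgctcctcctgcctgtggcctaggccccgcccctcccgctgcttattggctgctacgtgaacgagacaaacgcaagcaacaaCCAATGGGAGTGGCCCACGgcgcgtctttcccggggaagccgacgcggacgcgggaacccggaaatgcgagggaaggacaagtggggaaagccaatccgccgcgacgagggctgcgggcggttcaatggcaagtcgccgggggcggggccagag
ERO1B: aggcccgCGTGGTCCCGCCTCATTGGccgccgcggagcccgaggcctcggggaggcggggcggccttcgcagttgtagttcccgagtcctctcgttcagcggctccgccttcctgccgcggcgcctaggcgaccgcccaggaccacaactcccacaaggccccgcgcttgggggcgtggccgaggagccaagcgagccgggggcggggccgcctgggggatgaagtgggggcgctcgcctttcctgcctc
The match begins 66 bases before the start in HSPA5, 52 in XBP1 and 154 in FICD, in the orientation searched. In CALR and ERO1B it lies on the other strand and begins 225 and 243 bases before the start. A match describes the letters of the window and does not show that a factor was bound.

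ERLEC1, an ER lectin that recognizes trimmed N-glycans on proteins bound for degradation (chromosome 2, 53787009 to 53833038), was the 1 of 23 ER-associated degradation genes that fell, and 0 rose. It had 928, 913 and 906 counts in DMSO and 642, 652 and 688 at 5 nM (log2 change -0.47, adjusted p = 3.9e-05, limma). None of 25 genes for the translocon, the TRAP complex and signal peptidase passed with limma, and 1 was higher and 2 were lower at an unadjusted p under 0.05. With 2.18% of all genes passing, 0 calls among 25 lie near that share. Among 34 genes for oligosaccharyltransferase and the assembly of the dolichol-linked sugar, DPAGT1 rose (0.21) and MAGT1 fell (-0.19). DPAGT1 makes the first sugar link to dolichol, and other genes cover 26.4% of its exons.

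Of 15 genes for trimming and branching of N-glycans, 3 fell and 0 rose. MOGS, the glucosidase that makes the first cut in the new N-glycan, went from 1505, 1352 and 1301 counts to 1038, 1069 and 1091 (log2 change -0.38, adjusted p = 0.00097, limma). MAN1A1, a Golgi mannosidase, changed by -0.26, and MGAT1, which opens the path to complex N-glycans, by -0.21. Of 14 galactosyltransferases and related enzymes, 4 fell and 0 rose, namely B3GALNT1 (-0.27), B4GALT5 (-0.32), B4GALNT3 (-0.40) and B4GALT1 (-0.21). B4GALT1, the main galactosyltransferase of N-glycans, had 2771, 2713 and 2610 counts in DMSO and 2298, 2295 and 2420 at 5 nM, and its adjusted p of 0.039 (limma) rose to 0.18 at most when a library was left out. For mucin-type O-glycosylation 2 of 20 genes fell and 0 rose. GALNT1, which starts these chains, had 1511, 1502 and 1550 counts against 1258, 1259 and 1260 at 5 nM (log2 change -0.27, adjusted p = 0.0043, limma), and C1GALT1, which adds the core galactose, changed by -0.25.

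TMEM165 is a Golgi membrane protein needed for manganese supply and normal glycosylation (chromosome 4, 55395957 to 55453397). It had 2893, 3018 and 2824 counts in DMSO and 2213, 2202 and 2179 at 5 nM. The treated libraries were tightly grouped below every vehicle library, with a log2 change of -0.41 and a standard error of 0.04 (adjusted p = 2.4e-05, limma). TMTC3, an ER enzyme that adds mannose to cadherins, changed by -0.50 (adjusted p = 0.00013, limma), and B4GAT1, which primes the matrix-binding glycan of dystroglycan, by -0.46 (adjusted p = 0.00097, limma). CHPF and CHPF2, which extend chondroitin chains, changed by -0.53 and -0.40. CHPF had 911, 863 and 874 counts in DMSO and 606, 579 and 654 at 5 nM. SDC2, the syndecan-2 core protein that carries heparan sulfate, went from 2043, 2134 and 2088 to 1586, 1448 and 1583 counts (log2 change -0.44, adjusted p = 4.6e-05, limma).

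No gene of the COPII coat (18 tested) or of the COPI coat and its ARF factors (18 tested) passed with limma, and none of the 18 tested subunits of the V-type ATPase passed either. Over all genes 2.18% passed, so 0 calls among 18 genes lie near that share. At an unadjusted p under 0.05 these 3 lists held 1, 1 and 2 higher and 1, 0 and 1 lower genes. Among 25 cargo receptors 3 fell (TMED7, ERGIC2 and MCFD2, by 0.28, 0.22 and 0.18 on the log2 scale) and 0 rose. The libraries of 11 of the 25 did not overlap in the lower direction (12.7% of all genes) and those of 0 in the higher (10.5%). The list median was -0.07. Among 33 golgins and tethers GOLM1 fell by 0.22. ATP6V0A1, a membrane subunit of the V-type ATPase that the study names, had 699, 659 and 635 counts in DMSO and 721, 716 and 748 at 5 nM. Its groups did not overlap, and the log2 difference of 0.13 did not pass (adjusted p = 0.28, limma).

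ARSK had the smallest p of all genes. It encodes arylsulfatase K, a lysosomal enzyme that removes sulfate from glucuronate in glycosaminoglycans (chromosome 5, 95555101 to 95605102). Its counts were 396, 378 and 361 in DMSO and 172, 173 and 170 at 5 nM, or 378 ± 17.4 and 172 ± 1.57 (SD, n = 3). The log2 change was -1.13 with a 95% interval from -1.33 to -0.94 (adjusted p = 3.2e-06, limma), and it stayed past the threshold without any 1 library. In the lysosome list, which does not include ARSK, 3 of 37 genes fell and 0 rose. SGSH, the heparan sulfamidase, went from 548, 554 and 538 to 384, 365 and 415 counts (log2 change -0.49, adjusted p = 0.0047, limma). CTSA, a carboxypeptidase, changed by -0.20 and LAMP1, an abundant lysosomal membrane protein, by -0.17. The list median was -0.13. The libraries of 21 of the 37 did not overlap in the lower direction (12.7% of all genes), or 1 in the higher (10.5%).

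SLC3A2 rose at 5 nM. It encodes CD98hc, the heavy chain that brings amino acid transporters to the surface and binds integrins (chromosome 11, 62856004 to 62888880). Counts were 2612, 2433 and 2389 in DMSO, 2619, 2781 and 2341 at 0.5 nM and 4200, 4006 and 3465 at 5 nM. The 0.5 nM libraries overlapped with DMSO, while all 5 nM libraries lay above both. The log2 change was 0.65 with a standard error of 0.07 (adjusted p = 2.8e-05, limma), and against 0.5 nM it was 0.59 (adjusted p = 0.00042, limma). The window around its RefSeq start holds TTACATCA, the reverse complement of the C/EBP-ATF element TGATGNAA to which ATF4 binds, 37 bases after the start. That element is in 1.63% of the 10293 promoters. It occurs among both rises and falls: 2 of the 47 rises with an entry (SLC3A2 and PRSS3) and 4 of the 185 falls with an entry hold it. The falls are SLC1A3 (-0.42), S100P (-0.67), SEMA3C (-0.26) and MCFD2 (-0.18). The same window holds an AP-1 site, TGACTCA, whose motif TGANTCA is in 4.63% of promoters, and overlapping it an antioxidant element (TGACNNNGC, in 15.3%), both 37 bases before the start. The AP-1 motif is in 7 of these 47 rises and 14 of these 185 falls, and the antioxidant element in 10 and 20. The 2 sets differ in size and lack entries for many genes, so no comparison of rises with falls is drawn from these counts.

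Genes that share regulators with SLC3A2 did not move as a group. Among 31 target genes of ATF4, the factor of the integrated stress response, SLC3A2 rose and 2 fell. SLC38A2, a neutral amino acid transporter, went from 6316, 5900 and 6293 to 5372, 5187 and 5391 counts (log2 change -0.21), and GDF15, a secreted stress cytokine, changed by -0.32. The list median was -0.001. Of 17 amino acid transporters, SLC3A2 rose, SLC38A2 and the glutamate transporter SLC1A3 (-0.42) fell, and the median was 0.01.

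The cytosolic heat-shock chaperones were slightly higher at 5 nM. Of 34 tested, 2 rose and 0 fell, and 12 had higher libraries without overlap and 1 lower. Over all genes, 0.465% rose, and 10.5% were higher and 12.7% lower without overlap. The list median was 0.07 at 5 nM, beside 0.36 at 50 nM and 0.50 at 500 nM. HSPA8, the constitutive Hsp70, had 32830, 30333 and 29338 counts in DMSO and 36798, 38577 and 34192 at 5 nM (log2 change 0.24, adjusted p = 0.024, limma). AHSA1, an activator of the Hsp90 ATPase, changed by 0.15 (adjusted p = 0.044, limma), and lost its call in 11 of the 15 fits without 1 library. HSP90AA1 had 43811, 44274 and 43780 counts in DMSO and 45113, 49892 and 45013 at 5 nM. The groups did not overlap, but the log2 difference of 0.08 did not pass (adjusted p = 0.60, limma), and a near-identical pseudogene copy may share its reads. None of the 8 subunits of the TRiC chaperonin passed with limma, and 1 was higher and 0 were lower at an unadjusted p under 0.05. With 2.18% of all genes passing, 0 calls among 8 lie near that share.

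The HSPA8 promoter is shown because it carries 2 heat-shock elements, searched as TTC, GAA and TTC, or GAA, TTC and GAA, each with 2 bases of any kind between neighbors. These patterns are each other's reverse complement, and they occur in 0.321% of the 10293 promoters. The 250 bases before the start (chr11:123062137-123062386, minus strand, GRCh38.p14, RefSeq) are printed with both matches in capitals.
HSPA8: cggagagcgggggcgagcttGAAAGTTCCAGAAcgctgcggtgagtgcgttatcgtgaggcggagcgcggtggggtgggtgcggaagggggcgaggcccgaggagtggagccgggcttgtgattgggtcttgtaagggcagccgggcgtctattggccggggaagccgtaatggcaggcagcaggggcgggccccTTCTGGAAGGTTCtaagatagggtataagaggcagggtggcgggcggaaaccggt
The matches begin 230 and 55 bases before the start. MANCR, a long noncoding RNA, was the only other rise with the element among the 47 rises that have an entry. Among the 185 falls that have an entry, 1 held it too, namely SYNC (log2 change -0.83).

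IL1B, CSF3, TNC and MMP1 rose at 5 nM, from lists in which other members fell. IL1B, which encodes the cytokine interleukin-1 beta (chromosome 2, 112829751 to 112836816), had 636, 674 and 601 counts in DMSO and 954, 1070 and 1107 at 5 nM. Every treated library lay above every vehicle library, with a log2 change of 0.71 (standard error 0.07, adjusted p = 2.4e-05, limma). CSF3, the granulocyte growth factor, changed by 0.46. TNC, the matrix glycoprotein tenascin-C (chromosome 9, 115019575 to 115118207), had 1314, 1357 and 1272 counts in DMSO and 2159, 2030 and 2081 at 5 nM, a log2 change of 0.67 (adjusted p = 0.00035, limma). MMP1, an interstitial collagenase, had 808, 805 and 701 counts against 1065, 1057 and 1025 (log2 change 0.45, adjusted p = 0.00035, limma). Of 24 matrix proteases and inhibitors, 3 rose, among them MMP1 and ADAMTS1 (0.39), and TIMP3 (-0.25) and HPSE (-0.23) fell. TIMP3 inhibits matrix metalloproteases, and HPSE cuts heparan sulfate chains.

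MUC5AC, a gel-forming secreted mucin (chromosome 11, 1157953 to 1201138), rose with a wide scatter at 5 nM. Its counts were 6532, 7260 and 7033 in DMSO and 12694, 15774 and 19716 at 5 nM, or 6941 ± 372 and 16061 ± 3520 (SD, n = 3). The log2 change was 1.19 with a 95% interval from 0.79 to 1.58 (adjusted p = 0.0019, limma). SERPIND1, a plasma protease inhibitor, rose from 90.3, 95.1 and 73.0 to 157, 144 and 149 counts (log2 change 0.80). MARF1 had 26.9, 18.2 and 17.2 counts in DMSO and 64.7, 135 and 42.2 at 5 nM. The log2 change of 1.77 (adjusted p = 0.018, limma) was the largest among the rises, but its libraries differ widely at 5 nM, an alternate contig holds a copy of the gene, and the call was lost in 4 of the 15 fits without 1 library. AC015813.1 (0.96), which has no entry in the annotation used here, lost its call in 4 fits as well.

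Transcription factors of the immediate-early and AP-1 kind moved both ways. JUN had 2509, 2412 and 2293 counts in DMSO and 3012, 2932 and 2981 at 5 nM (log2 change 0.31, adjusted p = 0.00097, limma), and FOSL1 changed by 0.32. FOS went from 269, 191 and 190 counts to 85.7, 88.2 and 121 (log2 change -1.13, standard error 0.27, adjusted p = 0.032, limma), a change that passed at 0.5 nM too and lost its call in 5 fits without 1 library. IER5 fell by 0.27. The list holds 25 tested genes, with a median of -0.04. MCL1, an anti-apoptotic protein with a short-lived messenger, rose from 4449, 4442 and 4471 to 5257, 5282 and 5313 counts (log2 change 0.25, adjusted p = 0.0033, limma), the 1 call among 15 BCL2 family genes. Other rises with small p were HMGA1 (0.33), a chromatin protein, AOX1 (0.42), aldehyde oxidase, and DHRS3 (0.55), a retinal reductase.

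**Figure D3:**
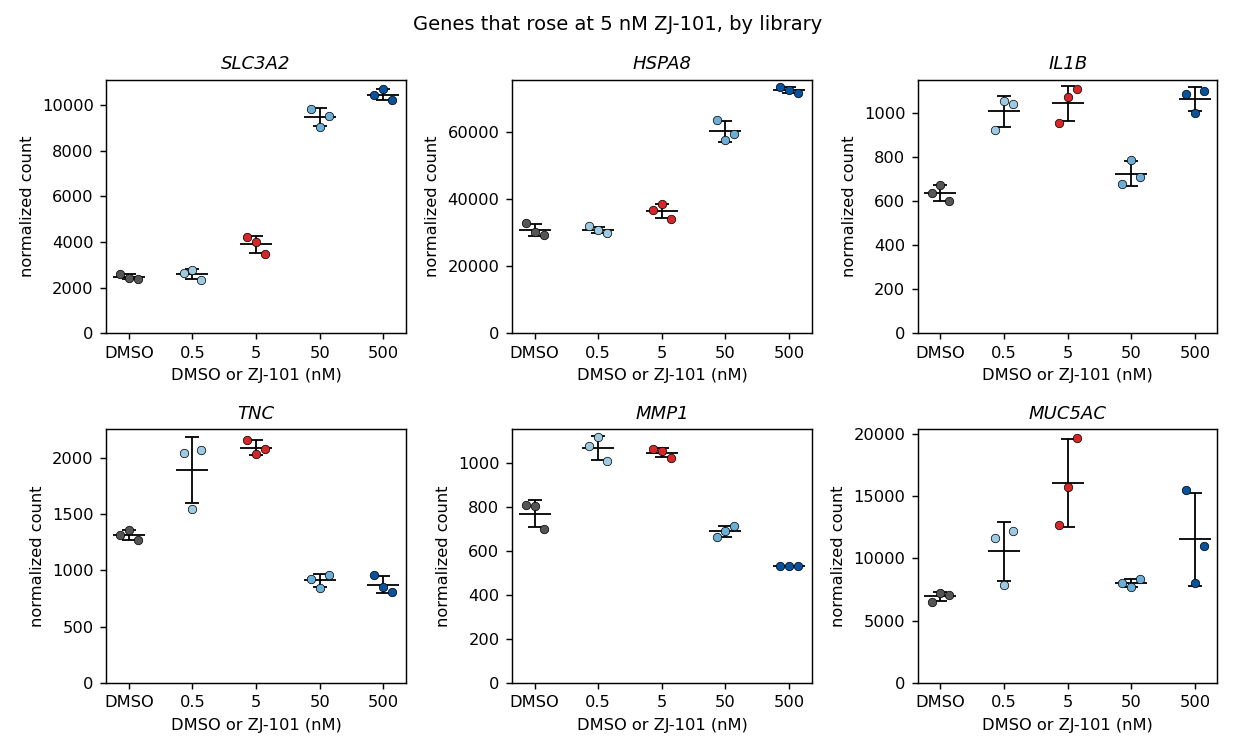
Normalized counts (y axis, from 0) of 6 genes that rose at 5 nM, in DMSO and at 4 doses of ZJ-101 in nM (x axis). Each point is 1 library, the horizontal bar is the mean and the whiskers are the SD of 3 libraries. SLC3A2 and HSPA8 are higher again at 50 nM, whereas TNC, MMP1 and MUC5AC at 50 nM lie below their 5 nM points.

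Of 30 NF-kB targets and cytokines, IL1B and CSF3 rose and 6 fell. The falls were IL6 (-0.64), BCL3 (-0.43), CXCL1 (-0.32), CXCL8 (-0.28), CSF1 (-0.28) and TNFAIP2 (-0.17). IL6, an inflammatory cytokine, had 551, 536 and 538 counts in DMSO and 379, 340 and 326 at 5 nM (adjusted p = 0.0069, limma). CSF1, the macrophage growth factor, had 11451, 10969 and 10610 against 8561, 8922 and 9678. ICAM1, an adhesion receptor for leukocytes that the study names, had 958, 860 and 814 counts against 628, 685 and 715. Its groups did not overlap and the log2 difference was -0.37, but it did not pass (adjusted p = 0.073, limma). It passed with edgeR (adjusted p = 0.047) and DESeq2 (adjusted p = 0.015). Among 30 interferon-stimulated genes, IFITM3 (-0.31) and DDX58 (-0.19) fell and 0 rose, with a median of -0.11. A near-identical annotated gene overlaps 43.2% of the exon bases of DDX58, so its value is uncertain.

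Adhesion genes moved in part. Of 38 genes for cell-cell adhesion, 4 fell and 0 rose. CDH11, a mesenchymal cadherin (chromosome 16, 64943753 to 65126112), had 1709, 1597 and 1477 counts in DMSO and 933, 948 and 1027 at 5 nM. The groups did not overlap and the log2 change was -0.72 (standard error 0.08, adjusted p = 4.6e-05, limma). PCDH7 changed by -0.40 and JUP, the junction protein plakoglobin, by -0.31. CDH1, the epithelial cadherin, is weakly expressed in this line. It went from 188, 199 and 200 to 112, 114 and 148 counts (log2 change -0.66, adjusted p = 0.019, limma), with the call lost in 5 fits without 1 library. None of 16 integrins passed with limma, and 2 were higher and 4 lower at an unadjusted p under 0.05. ITGAV had 2385, 2421 and 2576 counts against 2226, 1837 and 2117 (log2 difference -0.26, adjusted p = 0.059, limma), and it passed with DESeq2 (adjusted p = 0.019). ITGA5 had 2882, 2888 and 2771 counts in DMSO and 2919, 2947 and 3072 at 5 nM, and ITGB5 2765, 2790 and 2709 against 2530, 2415 and 2699. Their log2 differences of 0.07 and -0.11 did not pass (adjusted p = 0.69 and 0.42, limma). None of 30 focal adhesion genes passed with limma, and 3 were higher and 1 lower at an unadjusted p under 0.05. Over all 13561 genes 2.18% passed, so 0 calls among 16 or 30 genes lie near that share. At that unadjusted p, 672 of all genes were higher and 1077 lower.

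Of 38 collagens and collagen-modifying enzymes, 5 fell and 0 rose. They were P3H4 (-0.35), LOX (-0.33), COL4A1 (-0.27), PLOD2 (-0.22) and COL18A1 (-0.20). LOX and PLOD2 cross-link and hydroxylate collagen. COL5A1 had 2874, 2848 and 2792 counts against 2307, 2333 and 2609, and its log2 difference of -0.23 did not pass with limma (adjusted p = 0.092) or edgeR (0.11), but did with DESeq2 (0.042). Of 36 laminins and matrix glycoproteins, TNC rose and 4 fell. VWA1, a small basement membrane protein, had 1076, 1028 and 990 counts in DMSO and 582, 634 and 758 at 5 nM (log2 change -0.66, adjusted p = 0.0023, limma). MATN2 changed by -0.67, OLFML2A by -0.78 and EFEMP1 by -0.52, each without overlap. Of 15 Eph receptors and ephrins, the ligands EFNA1 (-0.49) and EFNB2 (-0.34) fell, and EPHA2, a receptor that the study names, had 9980, 10032 and 9608 counts against 10368, 10194 and 10206. Its groups did not overlap, and the log2 difference of 0.06 did not pass (adjusted p = 0.60, limma). GPRC5A, an orphan receptor also named by the study, had 4058, 4295 and 4106 counts against 4407, 4859 and 4335, with a log2 difference of 0.12 (adjusted p = 0.32, limma).

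Of 28 genes for sterol synthesis and uptake, 3 fell and 0 rose, the libraries of 14 did not overlap in the lower direction against 0 in the higher, and the median was -0.11. INSIG1, an ER protein that holds back the sterol sensor, went from 399, 326 and 363 to 239, 236 and 270 counts (log2 change -0.54, adjusted p = 0.011, limma), and SREBF1, the lipogenic transcription factor, changed by -0.33. Of 24 genes for fatty acid synthesis and activation, 2 fell and 0 rose, and the libraries of 7 did not overlap in the lower direction against 4 in the higher. For both lists the shares over all genes are 1.71% that fell, and 12.7% lower and 10.5% higher without overlap. ACSL3, an acyl-CoA synthetase of the ER and lipid droplets (chromosome 2, 222860942 to 222944639), had 2734, 2767 and 2819 counts in DMSO and 2009, 2034 and 2066 at 5 nM (log2 change -0.45, standard error 0.04, adjusted p = 2.0e-05, limma). SCD, the stearoyl-CoA desaturase, changed by -0.66. SPTSSB, a small subunit of serine palmitoyltransferase that starts sphingolipid synthesis, went from 130, 141 and 133 to 83.9, 82.9 and 60.8 counts (log2 change -0.83, adjusted p = 0.0040, limma).

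In the TGF-beta and BMP list, 5 of 30 genes fell (1.71% of all genes) and 0 rose, with a median of -0.15. The libraries of 14 genes did not overlap in the lower direction (12.7% of all genes), against 2 in the higher (10.5%). BMP4, a secreted ligand, had 2056, 1977 and 1941 counts in DMSO and 1551, 1595 and 1506 at 5 nM (log2 change -0.36, adjusted p = 0.00013, limma). TGFB2, another ligand, changed by -0.44, although antisense and overlapping transcripts cover 34.2% of its exons. The coreceptor TGFBR3 (-0.27), the inhibitor BAMBI (-0.45) and the inhibitory SMAD6 (-0.29) also fell. Of 26 YAP/TAZ pathway genes, TGFB2, AMOTL2 (-0.21) and F3 (-0.22) fell and 0 rose. Among the remaining falls with small p were NNMT, nicotinamide N-methyltransferase, with 476, 486 and 481 counts in DMSO and 276, 281 and 288 at 5 nM (log2 change -0.77, adjusted p = 0.0001, limma), and MAL2, a proteolipid of transcytosis in epithelial cells, with 1927, 1888 and 1838 against 1375, 1308 and 1236 (log2 change -0.53, adjusted p = 3.2e-06, limma). RASSF9 changed by -0.82.

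Several groups held no call. Over all 13561 genes, 2.18% passed, and 672 were higher and 1077 lower at an unadjusted p under 0.05. None of 74 cytosolic ribosomal proteins, 38 proteasome subunits, 58 nuclear-encoded respiratory chain genes, 37 S phase genes, 30 genes of mitosis or 24 genes of the EGFR family and its feedback passed with limma, and their medians lay between -0.04 and 0.05. At an unadjusted p under 0.05, 0, 0, 1, 0, 0 and 2 of them were higher and 0, 0, 0, 3, 3 and 5 lower. Of 29 NRF2 targets, NFE2L2 itself fell by 0.20, and genes that overlap it cover 38.4% of its exons. The 13 mitochondria-encoded respiratory genes had a median log2 difference of 0.63 with 0 calls by limma and 8 at an unadjusted p under 0.05. Their summed counts were 101217 to 174739 in DMSO and 163919 to 228734 at 5 nM, so the groups overlapped. Whether this mitochondrial share has a part in any other difference was not tested. Of the marker lists, 2 of 13 tested luminal genes fell (CDH1 and XBP1) and 0 rose, and none of 13 mesenchymal genes or of 5 markers of blood, endothelium and fibroblasts passed with limma, with 2 and 0 higher and 3 and 1 lower at an unadjusted p under 0.05.

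**Figure D4:**
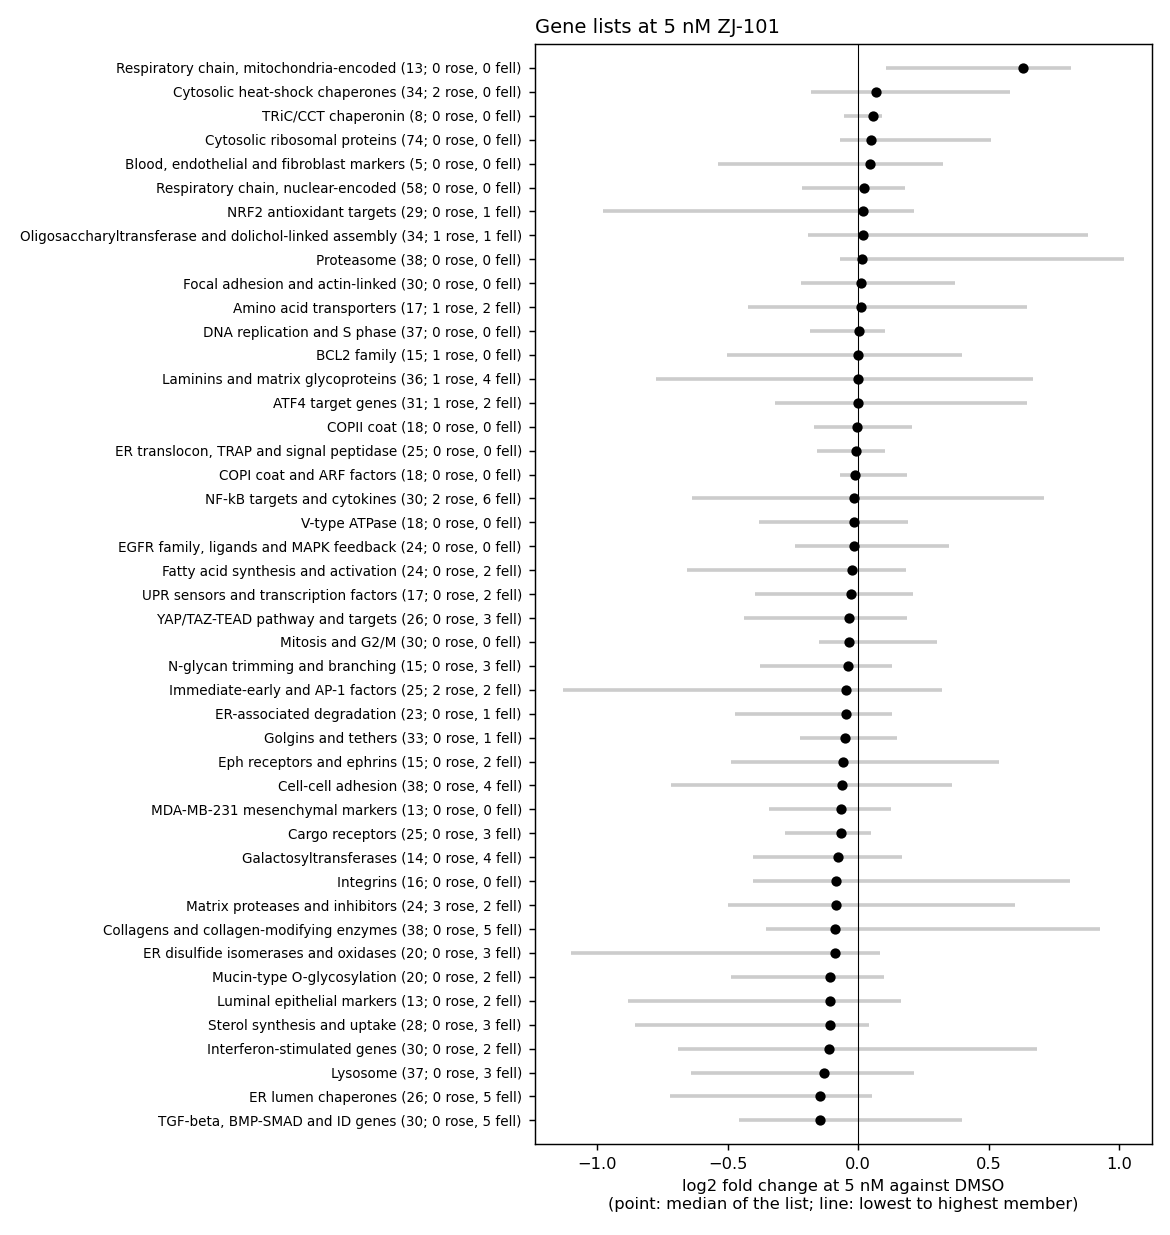
Log2 fold change at 5 nM against DMSO (x axis) for 45 gene lists (y axis, with the number tested and the numbers that rose and fell). Points are list medians and lines run from the lowest to the highest member. The mitochondria-encoded genes lie farthest right (0.63) with no call, and the TGF-beta list and the ER lumen chaperones lie farthest left (both -0.15).

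The step from 0.5 to 5 nM was tested directly. It separated 16 genes (0.118% of those tested, limma), of which 4 were higher and 12 lower at 5 nM, and 15 of them also passed against DMSO. With only the libraries compared the count was 4 (2 higher and 2 lower), of which 3 were among the 16. It was 9, 7 or 9 without 5 nM library 1, 2 or 3, and 25 without library 2 of the 0.5 nM group. ARSK had 328, 285 and 274 counts at 0.5 nM, between DMSO and 5 nM, and its difference from 0.5 to 5 nM was -0.78 (adjusted p = 0.00049, limma). MANF had 1591, 1750 and 1630 at 0.5 nM, which overlaps with DMSO, and dropped by 0.50 to 5 nM (adjusted p = 0.00042, limma). The others that were lower were TMEM165, ERLEC1, DNAJB11, DNAJC3, B4GAT1, TMTC3, CHPF, MOGS, MGAT1 and FSTL3, a secreted inhibitor of activin. MANF, B4GAT1, CHPF and MGAT1 had a log2 difference from DMSO between -0.01 and 0.03 at 0.5 nM. SLC3A2, LRIG2 (0.43) and TTC17 (0.37) were higher at 5 nM than at 0.5 nM, as was ZNF251 (1.93), the 1 gene that did not pass against DMSO. Of the 232 falls at 5 nM, 80 also passed as lower at 0.5 nM, and 25 of the 63 rises passed as higher. Both doses share the DMSO libraries, so these counts are not independent.

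From 5 to 50 nM, 679 genes differed (5.01%, limma), with 355 higher (2.62%) and 324 lower (2.39%) at 50 nM. The count was 435 or 424 without 5 nM library 2 or 3, 430 without 50 nM library 1 and 1129 without library 2 of the 0.5 nM group. Of the 63 rises at 5 nM, 8 went further up and 19 came back down. Of the 232 falls, 42 went further down, 44 came back up and 146 did not pass in this step. The 5 nM libraries stand in both differences, so these counts are a description. SLC3A2 had 9851, 9062 and 9539 counts at 50 nM, 1.29 above 5 nM on the log2 scale (adjusted p = 1.4e-09, limma). HSPA8 stood 0.73 above its 5 nM level at 50 nM. CHPF (-1.12), CHPF2 (-0.89), IKBIP (-0.82), CKAP4 (-0.79) and TPBG (-0.64) went further down, the last 3 after changes of only -0.24, -0.24 and -0.33 at 5 nM. CKAP4 is an ER sheet protein and TPBG a surface glycoprotein. DNAJC3 (-0.29), MANF (-0.30) and HSPA5 (-0.29) also dropped further, while DNAJB11 had a difference of 0.10 that did not pass (adjusted p = 0.42, limma).

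Other genes were low at 5 nM and near the vehicle level or above it at 50 nM. MAL2 had 1840, 1871 and 1873 counts at 50 nM, overlapping with DMSO, after 1326, 1321 and 1280 at 0.5 nM and the low values at 5 nM. ACSL3 had 2095, 2004 and 2169 counts at 0.5 nM and 2610, 2908 and 2771 at 50 nM. BMP4 had 1547, 1644 and 1650 at 0.5 nM and 2198, 2235 and 2152 at 50 nM, where every library lay above every DMSO library. In each of these 3 genes the 0.5 and 5 nM libraries formed a low group with no detected difference between them (log2 differences of -0.00, -0.04 and -0.06). The DMSO and 50 nM libraries lay above that group. TNC went the other way. Its 924, 847 and 959 counts at 50 nM lay below DMSO. The log2 difference was -1.20 from 5 nM (adjusted p = 7.2e-08, limma) and -0.53 from DMSO (adjusted p = 0.00056, limma), and TNC was the 1 gene that passed against DMSO in opposite directions at 5 and 50 nM.

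**Figure D5:**
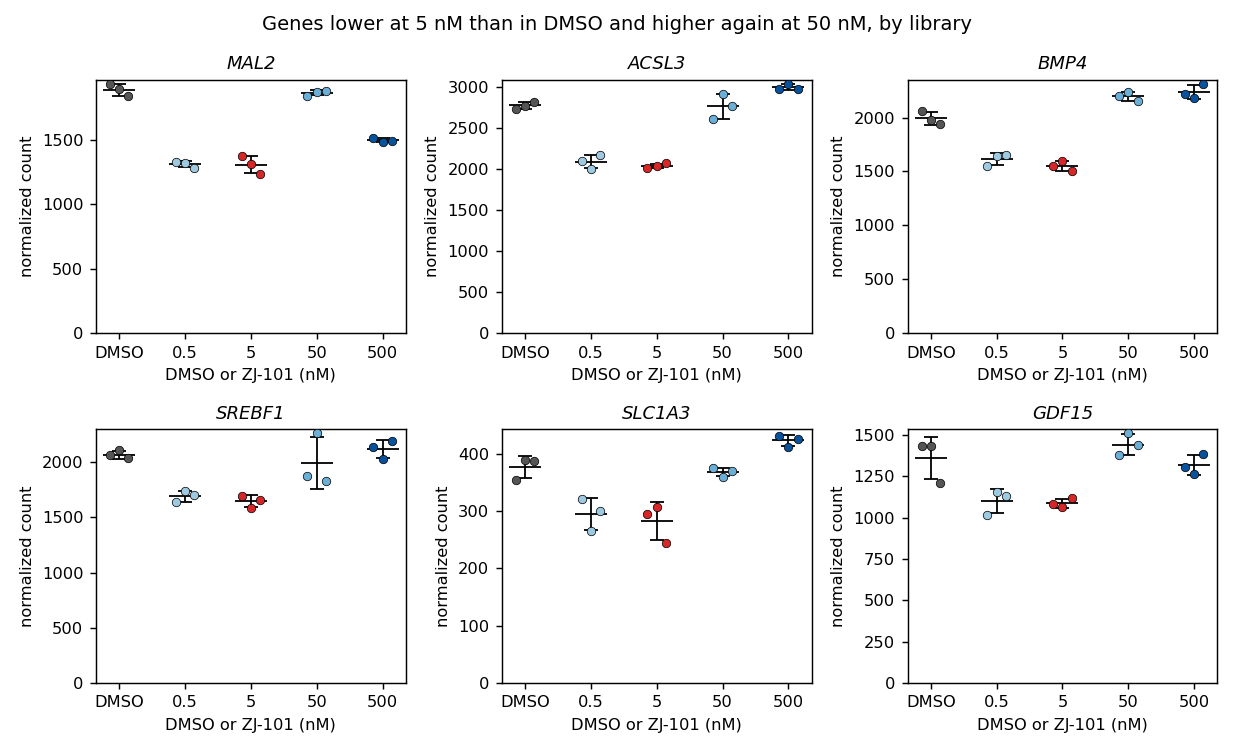
Normalized counts (y axis, from 0) of 6 genes that fell at 5 nM and were higher again at 50 nM, in DMSO and at 4 doses of ZJ-101 in nM (x axis). Each point is 1 library, the horizontal bar is the mean and the whiskers are the SD of 3 libraries. MAL2 (1236 to 1375 at 5 nM, 1840 to 1873 at 50 nM) and ACSL3 are low at 0.5 and 5 nM and near their DMSO level at 50 nM.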

How the data were processed

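RNA from 15 dishes of MDA-MB-231 cells (3 each for DMSO and for 0.5, 5, 50 and 500 nM ZJ-101, 6 h) was sequenced as paired reads. The authors aligned the reads with HISAT2 to hg38, counted them per gene with HTSeq and divided the counts by DESeq2 size factors, and the deposited signal values are these normalized counts (tool versions are not given in the sources used here). Whole reads were recovered from the steps of the values (100% whole within 0.001). A row of dose labels that names no gene was left out.

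Genes with a mean of at least 10 were tested on log2(normalized count + 1) with limma 3.58.1 (trend) in R 4.3.3, with all 15 libraries in 1 model and Benjamini-Hochberg adjustment over 13561 genes, two-sided. Fold changes are on that scale and understate changes of low genes. edgeR 4.0.16 and DESeq2 1.42.0 on the recovered reads, other filters, pseudocounts and scalings, a replicate block and each library left out were alternatives. On simulated data for 5 nM against DMSO with 13501 genes, 63 of 100 changes of 0.5 and 94 of 99 changes of 1 on the log2 scale were recovered, and 9 of 166 calls were false. The simulated spread came from a set formula, the same for every library, and was not estimated from these data. No change under 0.5 was simulated, while the median size of the 295 calls was 0.32. These rates may therefore not hold for those calls. Named genes were the 10 rises and 12 falls with the smallest p and no overlap, the 5 rises and 5 falls of largest size with a mean of at least 50, up to 3 rises and 4 falls a list, 14 genes the study names, and up to 8 genes each for the steps from 0.5 to 5 nM and from 5 to 50 nM, with the exceptions marked in the text. A few genes that this rule names are not reported here. The members and lists were chosen with earlier results of these data known. Promoters came from RefSeq (GRCh38.p14) and gene positions and overlaps from GENCODE 44. Normalized counts are compared within a gene only. P-values measure the spread between these dishes, which may be technical.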

Additional observations from a re-analysis of the deposited data

Results flagged for a closer look

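For 7 genes that passed against DMSO at 5 nM, the step from 5 to 50 nM passed in the opposite direction with a size of at least 0.5 on the log2 scale (limma). The 5 nM libraries enter both differences. The log2 difference of 50 nM minus 5 nM was -1.20 for TNC, -0.98 for MUC5AC, -0.86 for SERPIND1, -0.60 for MMP1 and -0.53 for IL1B, which had all risen at 5 nM. It was 0.51 for MAL2 and 0.50 for BMP4, which had fallen at 5 nM.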

How the results depend on the processing

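The 295 calls at 5 nM against DMSO became 846 with only the libraries compared, 497 at an adjusted p under 0.1, 65 with a log2 change of at least 0.5, and 597 without the 0.5 nM group, an alternative chosen after seeing the data. The share of higher genes among the calls was 37.2% in the fit of 6 libraries. Leaving out 1 library gave 113 to 623 calls, with 113, 131 and 147 without DMSO library 1, 2 and 3, 141 and 121 without 5 nM library 1 and 2, and 623 without 0.5 nM library 2. With edgeR there were 299 calls, of which 281 were among the 295, and with DESeq2 370, of which 276 were. The other settings gave 205 to 331. Same-numbered libraries deviated together only weakly (r of 0.058, 0.031 and 0.073), although each correlated best with its own number, and the replicate block gave 315 calls for 5 nM against DMSO, 17 for 5 nM against 0.5 nM and 714 for 50 nM against 5 nM. The 16 genes between 5 and 0.5 nM became 32 with DESeq2, 4 with only the libraries compared and 7 to 25 with 1 library left out. The 679 genes between 50 and 5 nM became 1109 without the 0.5 nM group and 424 to 1129 with 1 library left out. No named gene changed direction. The medians of 15 lists near 0 changed sign under some setting, and no direction is drawn from those. The cause of these shifts was not tested, and 3 libraries a group limit the precision of each change.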
